A study of Mus musculus with 2 samples.

Results

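The proteasome is the multi-subunit protease that degrades ubiquitin-tagged proteins, and the genes described here encode its subunits, its activators and inhibitor, and the chaperones that assemble it. They were chosen by name: every array probe set with a single annotated gene symbol made of Psm, a letter a to g and a digit. The rule found 49 of the 18193 genes with such a probe set, on 103 probe sets. Of these, Psmc3ip, a meiotic recombination gene, and Psme3ip1, whose product binds the activator encoded by Psme3, do not encode proteasome parts. This left 47 proteasome genes on 100 probe sets. The activator gene Psme2 shares its probe set with Psme2b in the annotation and was therefore not named.

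The livers were those of 5-month-old male mice of the inbred strain C57BL/6J. Calorie-restricted (CR) mice received a diet reduced by 20% in week 1 and by 40% in the other 11 weeks, and ad libitum (AL) mice ate freely for the same 12 weeks. Both diets began at 8 weeks of age. Equal amounts of RNA from 3 individually housed mice made up a pool, and 1 Affymetrix array was run for each diet's pool. There were thus no replicates, p-values were not computed, and how much mice vary is unknown. All differences below are log2 intensity of the CR pool minus log2 intensity of the AL pool. They describe these pools.

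The core of the proteasome is a barrel of 4 stacked rings, in which outer rings of α subunits gate the entry and inner rings of β subunits hold the cleaving sites. A regulatory particle caps the barrel. Its base contains a ring of ATPases that unfold the substrate, and its lid removes the ubiquitin chain. In cells exposed to interferon γ, and in immune cells, immunoproteasome subunits replace the catalytic β subunits and change which peptides are made for MHC class I presentation. In mammals the transcription factor NRF1, encoded by Nfe2l1, induces the subunit genes together when proteasome capacity falls short.

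Most proteasome transcripts were modestly lower in the CR pool, in the core, the base and the lid alike. For a gene with several probe sets, the brightest by mean log2 intensity is given first. A gene counted as measured where CR or AL intensity was 7.38 or more, which is the median over the pair of arrays. Of the 47 genes, 46 were measured. Only Psma8 owed this to a single pool. In all, 38 of the 46 lay below 0, where 52.1% of all 12644 measured genes did. At least 1.5-fold lower were 20, against a background of 9.49%. At least 2-fold lower were 2, Psmb7 and Psmg2, against a background of 2.79%. On the other side, 1 gene, Psmd9, was at least 1.5-fold higher (background 6.76%) and none reached 2-fold (background 1.8%). The median difference was -0.42 over the 46 genes and -0.02 over all measured genes. Without the limit, 39 of all 47 genes with a probe set lay below 0, with a median of -0.41. Among the 31 constitutive subunits of the complete particle that the rule named, 27 lay below 0, with a median of -0.48. The lid subunit gene Sem1 falls outside the rule and is given with the accessory genes below.

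**Figure D1:**
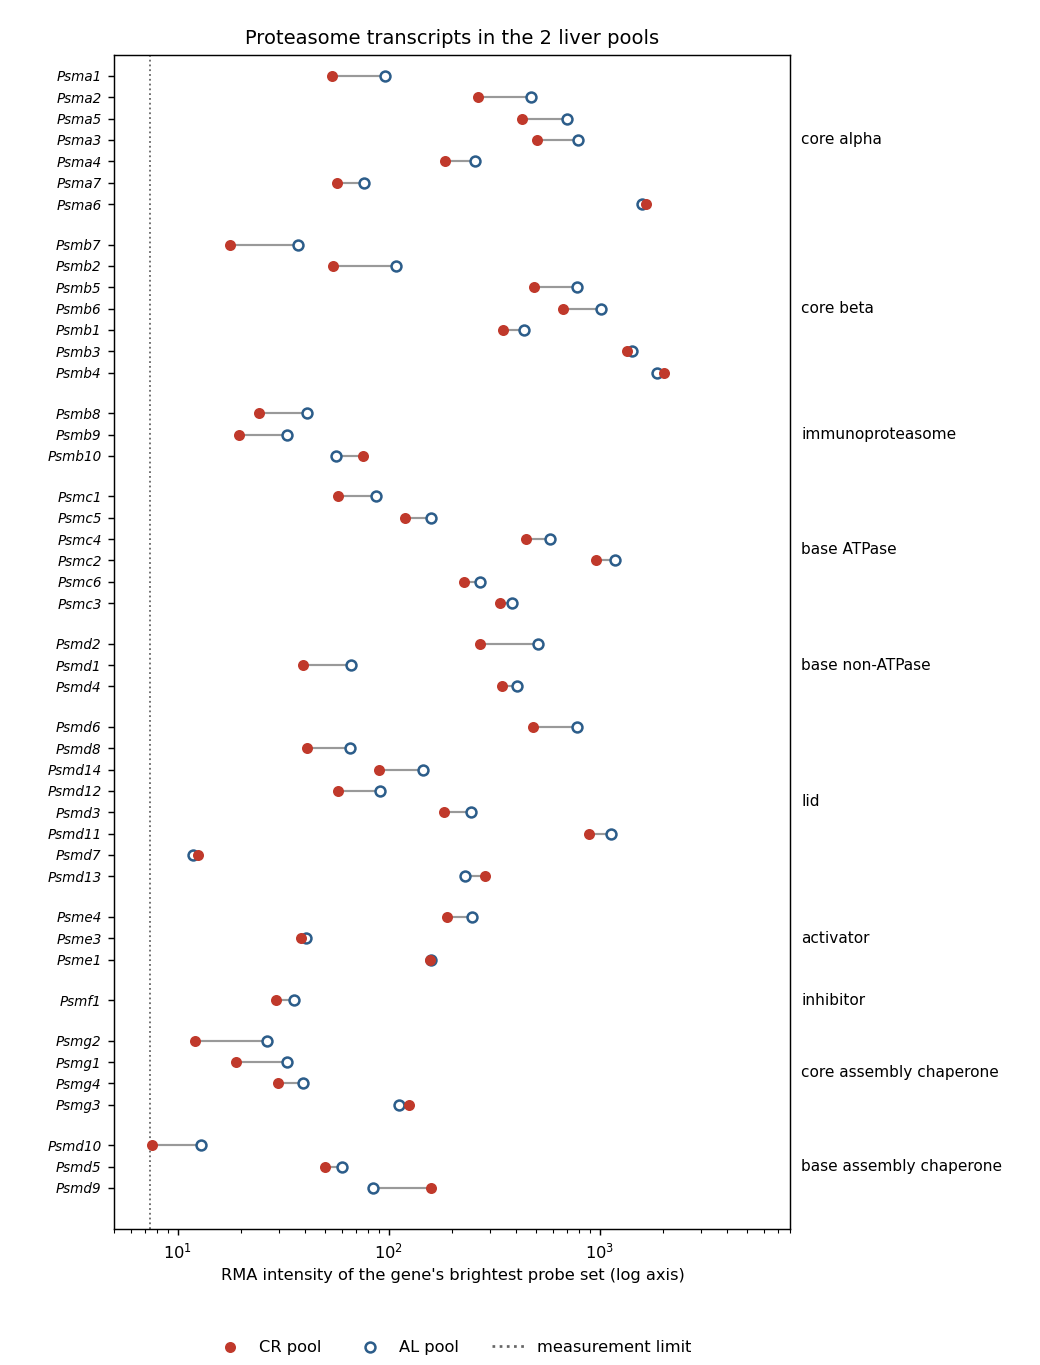
RMA intensity on a log axis for the brightest probe set of each measured proteasome gene other than the testis gene Psma8, grouped by role, with filled red points for the CR pool and open blue points for the AL pool, 1 pool each. The red point lies left of the blue one for most genes. Psma6, Psmb4, Psmb10, Psmd7, Psmd13, Psmg3 and Psmd9 show the opposite order, as did Psma8, which is not drawn.

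The arrays carried a strong 3′ bias, which bears on every value here. The 3′ to 5′ intensity ratio of the β-actin control was 89.7 in CR and 83.5 in AL, and that of the Gapdh control 53.2 in CR and 46.9 in AL. All 6 β-actin and Gapdh control probe sets were also lower in CR, by differences from -1.61 to -0.67, and their part in the results below was not tested. The hepatocyte markers Alb, Apoa1, Ttr, Cps1, Tat and Hnf4a were all measured, with a median difference of -0.06. Alb, the albumin gene, had an intensity of 11794 in CR and 12765 in AL. The spiked hybridisation controls were higher in CR, and scaling on them moved the median of all measured genes to -1.04, or to -0.40 on the cre control alone. The dap, lys, phe and thr controls were also higher in CR, by 0.82 to 1.97, and were not used for scaling. Directions below are therefore relative to the typical gene. After scaling on cre, Psmd9 and Psmb10 alone of the 46 remained above 0, and after scaling on all hybridisation controls none did. In bulk liver RNA, fewer cells of a type and less RNA per cell cannot be told apart.

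The α ring genes were lower in 6 of 7 cases, with a median of -0.65. Psma1, which encodes α6, had an intensity of 53.9 in CR and 96.0 in AL, a difference of -0.83. Psma2, encoding α2, stood at 266 in CR and 471 in AL, also a difference of -0.83. They were 1.78-fold and 1.77-fold lower in CR, and Psma2 had no second probe set. Psma5, the α5 gene, gave 428 in CR and 697 in AL (-0.70), and its other measured probe set gave -0.62. Psma3, the α7 gene, gave 505 in CR and 790 in AL (-0.65), while a dim probe set near the measurement limit stood at 0.07. Psma1 too had a second, dim probe set near the limit, at 0.06. Psma4 (α3) and Psma7 (α4) were lower by less, at -0.48 and -0.43. Psma6, the α1 gene, was the exception with 1656 in CR and 1587 in AL (0.06). That value came from a probe set of the _x_at type, which can pick up unrelated transcripts. A second Psma6 probe set stood at 137 in CR and 229 in AL, a difference of -0.74, so the sign for this gene depended on the probe set. Psma8, an α subunit gene of testis, was at the limit of measurement, with 7.39 in CR and 6.83 in AL.

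The β ring genes behaved likewise, with 6 of 7 below 0 and a median of -0.60. All 3 catalytic subunits were lower in CR. Psmb7 encodes β2, the subunit with trypsin-like activity, and had an intensity of 17.7 in CR and 37.0 in AL, a difference of -1.06. Psmb5 encodes β5, with chymotrypsin-like activity, and gave 485 in CR and 776 in AL (-0.68). Psmb6 encodes β1, with caspase-like activity, and gave 671 in CR and 1014 in AL (-0.60). Each of these 3 genes rested on 1 probe set. None had a second measured probe set to set beside it.

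The non-catalytic β genes were spread more widely. Psmb2, the β4 gene, stood at 54.1 in CR and 108 in AL, which is 1.99-fold lower in CR. Psmb1, the β6 gene, had 347 in CR and 435 in AL (-0.32), and its other probe sets gave -0.53 and 1.32. The probe set at 1.32 had 40.2 in CR and 16.1 in AL and was the only proteasome probe set at least 2-fold higher among the 78 measured (background over probe sets 1.99%). Psmb3, the β3 gene, gave 1339 in CR and 1425 in AL (-0.09) on its brightest probe set. Its other probe set gave 40.4 in CR and 114 in AL, a difference of -1.49. Psmb4, the β7 gene, stood at 2009 in CR and 1869 in AL (0.10) on an _x_at probe set and at 475 in CR and 536 in AL (-0.17) on the other. For Psmb1 and Psmb4, probe sets thus disagreed in sign. Psmb11, the β subunit gene of the thymus, was below the limit in both pools, with 5.57 in CR and 5.85 in AL.

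**Figure D2:**
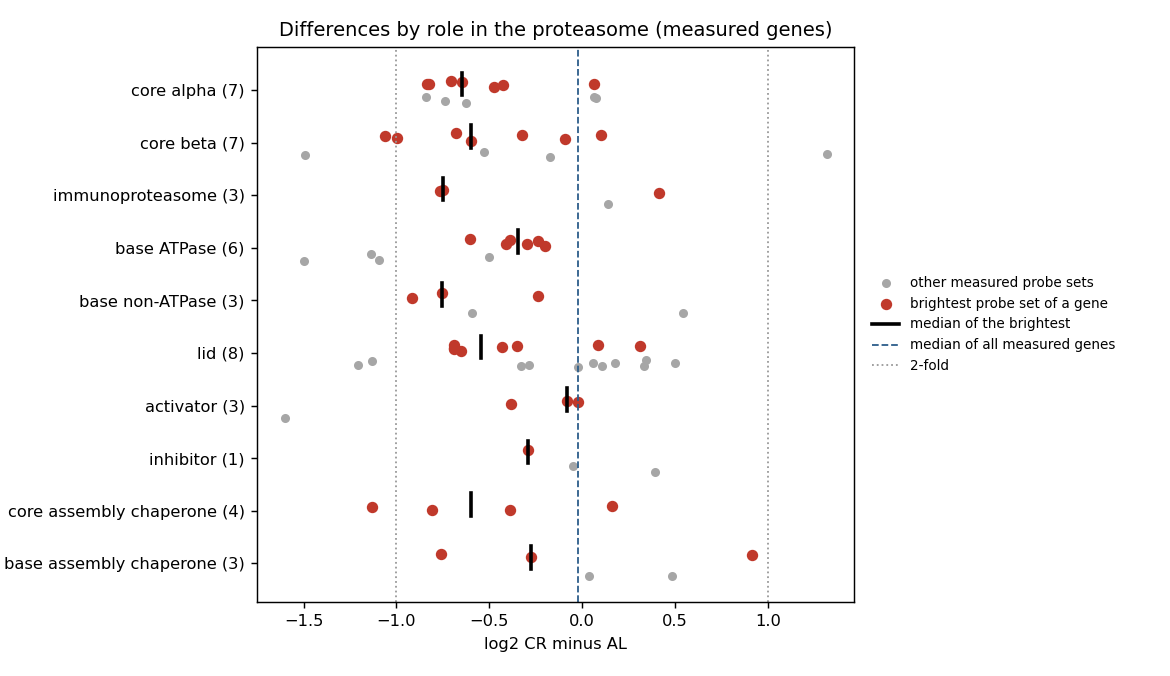
Log2 CR minus AL for proteasome genes by role, with red points for the brightest probe set of each measured gene, grey points for the other measured probe sets (Psma8 not drawn), black bars for role medians and the number of genes in brackets. Role medians run from -0.76 for the non-ATPase base genes to -0.08 for the activators, and the dashed line marks the median of all measured genes, -0.02.

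The immunoproteasome genes lay on both sides of 0. Psmb8, which encodes β5i, had an intensity of 24.1 in CR and 41.0 in AL (-0.77), and a second, dim probe set gave 0.14. Psmb9, which encodes β1i, had 19.6 in CR and 32.9 in AL (-0.75). Psmb10, which encodes β2i, had 75 in CR and 56.4 in AL, a difference of 0.41. Psmb8 and Psmb9 were thus lower in CR and Psmb10 was higher.

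Set against the constitutive subunits they replace, Psmb9 and Psmb8 differed little from their counterparts on the brightest probe sets. The difference of Psmb9 minus that of Psmb6 was -0.15, and that of Psmb8 minus that of Psmb5 was -0.09. The dim second Psmb8 probe set, at 0.14, lay on the other side of 0 from Psmb5, at -0.68. Typical scatter between probe sets of the same gene was 0.288 (median SD over 4924 genes with 2 or more measured probe sets). For proteasome genes it was 0.519. The gaps of -0.15 and -0.09 were smaller in size, but this SD does not measure the error of a gap between different genes. Psmb10 minus Psmb7 was 1.47, with the members of this pair on opposite sides of 0. That gap corresponds to a 2.78-fold larger ratio of Psmb10 to Psmb7 signal in CR. It rests on a single probe set per gene and no replicate.

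**Figure D3:**
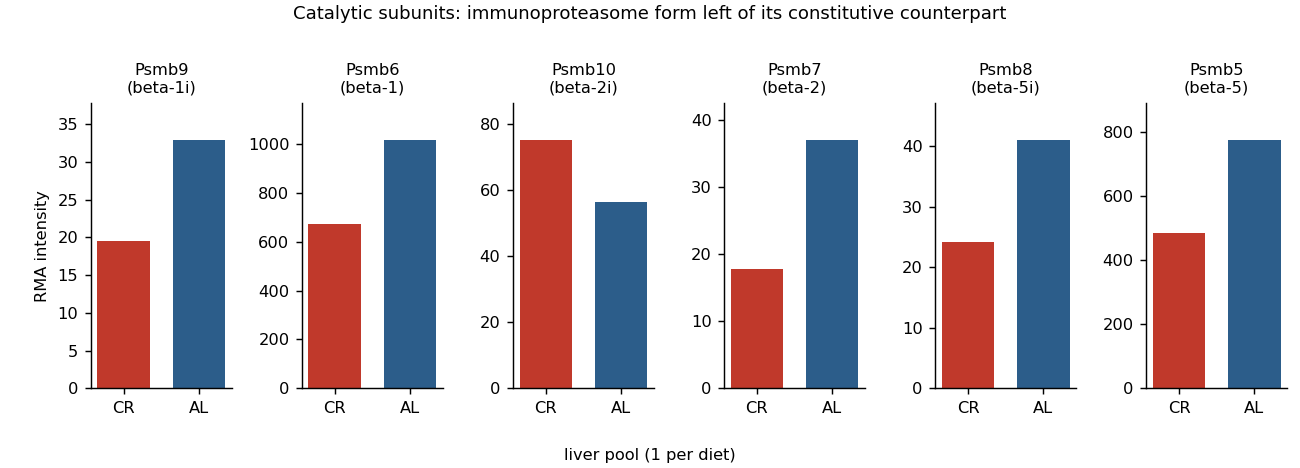
RMA intensity of the 3 immunoproteasome subunit genes, each left of its constitutive counterpart, in the CR pool (red) and the AL pool (blue), 1 pool each; every panel has its own axis starting at 0. Only Psmb10 has the taller CR bar, 75 against 56.4.

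Psmb8 and Psmb9 lie in the MHC class II region of chromosome 17, where the RefSeq gene table places the coding genes Psmb9, Tap1, Psmb8 and Tap2 next to each other. Psmb10 lies on chromosome 8. Tap1 and Tap2, which encode the transporter that carries proteasome-made peptides into the endoplasmic reticulum, were looked at for this position and after their values were seen. Tap1 had 27.9 in CR and 39.0 in AL (-0.48, other probe set 0.20), and Tap2 had 13.8 in CR and 17.5 in AL (-0.33). All 4 neighbours were therefore lower in CR on their brightest probe sets.

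Markers of immune cells, which express immunoproteasome subunits, were read beside these genes. All 7 measured Kupffer cell markers of 8 listed were below 0, with a median of -0.57 and a summed intensity of 1741 in CR and 1966 in AL. Among them, Clec4f, a receptor specific to Kupffer cells, had 121 in CR and 196 in AL. Of 11 lymphocyte markers with a probe set, 6 were measured, 3 of them below 0, with a summed intensity of 136 in CR and 144 in AL. The defining B cell markers Cd79a, Cd79b and Ms4a1 were below the limit. The neutrophil genes S100a8 and S100a9 stood at -2.29 and -1.75, and the summed intensity of the 3 measured neutrophil markers was 29.3 in CR and 97.1 in AL. The part of these cells in the Psmb8 and Psmb9 differences was not tested. Interferon target genes were divided evenly, with 7 of 14 below 0 and a median of -0.00. Ifi47, an interferon-induced GTPase gene, was the only member past 2-fold, at -1.16. The largest difference above 0 was that of Gbp3, with 21.5 in CR and 11.3 in AL (0.93).

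All 6 genes of the ATPase ring were lower, and on their brightest probe sets their differences lay close together, with a median of -0.34. Psmc1 had the largest, with 57.4 in CR and 87.3 in AL (-0.60), and Psmc3 the smallest, with 335 in CR and 385 in AL (-0.20). Psmc5, with a single probe set, stood at -0.41. The other 3 genes had a second probe set with a far larger difference. Psmc2 gave 954 in CR and 1173 in AL (-0.30) on its brightest probe set, but 39.1 in CR and 110 in AL (-1.50) on another. Psmc4 gave 446 in CR and 583 in AL (-0.39), against 37.3 in CR and 81.9 in AL (-1.14) on the second. Psmc6 gave 228 in CR and 269 in AL (-0.24) and -0.50 on a second probe set, while another was above the limit in AL alone, with 3.88 in CR and 8.28 in AL. Every measured probe set of this ring was therefore below 0, and the size of the difference depended on the probe set.

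The non-ATPase genes of the base were lower as well. Psmd2 and Psmd1 encode the large scaffold subunits Rpn1 and Rpn2. Psmd2 had 269 in CR and 507 in AL, a difference of -0.91, and Psmd1 had 39.1 in CR and 66.2 in AL, a difference of -0.76. Psmd4 encodes the ubiquitin receptor Rpn10 and stood at 344 in CR and 406 in AL (-0.24), with other probe sets at -0.59 and 0.54.

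In the lid, 6 of the 8 genes named by the rule were lower, with a median of -0.54. Psmd14 encodes Rpn11, the metalloprotease that cuts the ubiquitin chain from the substrate, and it had 90.1 in CR and 145 in AL (-0.69). The scaffold gene Psmd6 had 482 in CR and 778 in AL (-0.69), and its second probe set had 125 in CR and 275 in AL (-1.13). Psmd8 stood at 40.8 in CR and 65.7 in AL (-0.69), and Psmd12 at 57.7 in CR and 90.7 in AL (-0.65). These 4 genes stood between -0.69 and -0.65 on their brightest probe sets. Psmd3 was lower by less, at -0.43. Psmd11, which encodes Rpn6, gave 888 in CR and 1134 in AL (-0.35), and its 7 measured probe sets ran from -1.21 to 0.35. Psmd7, the partner of Psmd14 in the deubiquitinating pair, was dim, with 12.5 in CR and 11.8 in AL (0.09), and its other measured probe set gave -0.29. Psmd13, which encodes Rpn9, was the lid gene with the clearest opposite sign. It had 285 in CR and 230 in AL (0.31), and all 4 of its measured probe sets were above 0, from 0.06 to 0.50. The probe sets at both ends of that range were dim, with 8.87 in CR and 8.52 in AL at 0.06. At 0.50 the values were 9.96 in CR and 7.05 in AL. The remaining probe set had 110 in CR and 102 in AL (0.11).

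Among the activators, Psme1 and Psme3 differed little on their brightest probe sets, and Psme4 was lower by more. Psme1 encodes the α subunit of PA28, the interferon-inducible cap that opens the core barrel without ATP, and it had 157 in CR and 159 in AL (-0.02). Psme3, the gene of the nuclear PA28γ, had 38.4 in CR and 40.6 in AL (-0.08). Psme4, the gene of the large nuclear activator PA200, had 189 in CR and 247 in AL (-0.39). A second Psme4 probe set gave 14.3 in CR and 43.4 in AL, a difference of -1.60, the largest of any measured proteasome probe set. The inhibitor gene Psmf1, encoding PI31, had 29.1 in CR and 35.7 in AL (-0.29), with other measured probe sets at -0.05 and 0.39. None of these 4 genes reached 1.5-fold on its brightest probe set.

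Assembly chaperones held the extremes in either direction. The core is assembled with the help of chaperones encoded by Psmg1 to Psmg4. Psmg2 had 12.1 in CR and 26.5 in AL, at -1.13 the largest difference of any proteasome gene, and its partner Psmg1 had 18.8 in CR and 32.9 in AL (-0.81). The other pair differed less, with Psmg4 at 29.9 in CR and 39.2 in AL (-0.39) and Psmg3 at 124 in CR and 111 in AL (0.16). Each of the 4 core chaperone genes had 1 measured probe set. Averaged with its dim probe sets below the limit, Psmg2 stood at -0.47.

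Psmd5, Psmd9 and Psmd10 encode chaperones that help to assemble the ATPase ring of the base. Psmd9 had 159 in CR and 84.2 in AL, a difference of 0.92 and the largest positive one among proteasome genes. Its other probe sets gave 0.03 and 0.49, so the sign was shared but not the size. Psmd10, also known as gankyrin, had 7.57 in CR and 12.8 in AL (-0.76), close to the limit. Psmd5 had 49.6 in CR and 60.0 in AL (-0.27). The 2 non-proteasome genes of the rule, Psmc3ip and Psme3ip1, stood at -0.10 and -0.29.

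How far a gene differed depended on which probe set was read. Of the 78 measured proteasome probe sets, 56 lay below 0 (background over probe sets 52.2%) and 9 were at least 2-fold lower (background 2.97%). Of 20 proteasome genes with 2 or more measured probe sets, 8 had all of them below 0, 2 had all above 0 and 10 had mixed signs. Mixed signs were found in 50.0% of these genes and in 52.7% of all such genes on the array. The median SD between probe sets of a gene was 0.519 for the proteasome genes, against 0.288 over all genes. Of the 26 genes with a single measured probe set, 23 lay below 0.

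Probe sets with the suffixes _a_at, _s_at and _x_at can match several transcripts of a gene, related genes or unrelated sequence, whereas plain _at probe sets are designed to be unique. In 14 proteasome genes both kinds were measured, with a median of -0.79 over the plain values and -0.38 over the others. The plain value was the lower in 9 of the 14 (64.3%), against 58.1% of 2315 genes with both kinds on the array. When only plain probe sets were used, 39 proteasome genes were measured, and 8 of them were at least 2-fold lower (background 2.92%) and 1 was at least 2-fold higher (background 1.41%). Besides Psmb7 and Psmg2, the 8 were Psmb3, Psmc2, Psmc4, Psmc6, Psmd6 and Psme4, and the higher gene was Psmb1. Psmc6 was below the limit in CR on its plain probe set, with 3.88 in CR and 8.28 in AL, so the size of its difference is uncertain. The ATPase ring median then was -0.85. It lay midway between Psmc1 at -0.60 and Psmc6 at -1.09, and so depended on that uncertain value. Which kind of probe set tracks the transcript better was not tested.

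**Figure D4:**
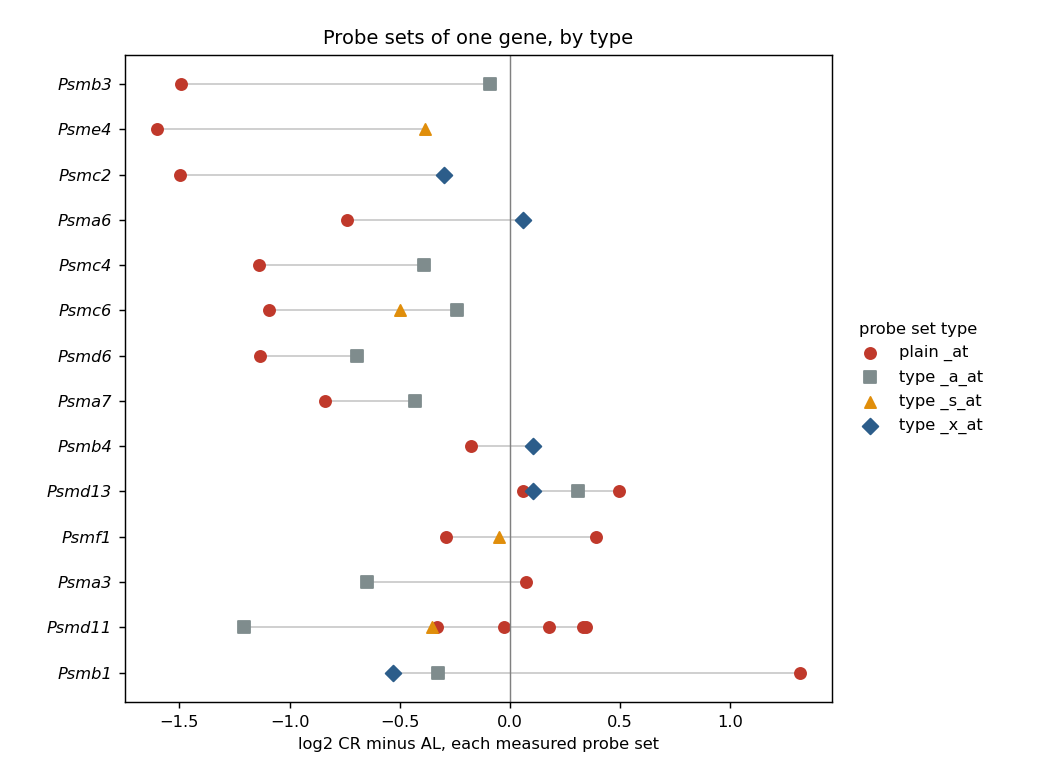
Log2 CR minus AL of each measured probe set in the 14 proteasome genes that have both plain and multi-transcript probe sets, with 1 row per gene and marker shapes for the probe set type. Plain probe sets of Psmb3, Psme4 and Psmc2 lie at -1.49, -1.60 and -1.50, far left of the other type, and that of Psmb1 lies far right at 1.32.

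Regulatory sequence was compared over the 250 bases before each RefSeq start site. For 40 of the proteasome genes, 43 such windows were given in the RefSeq promoter table (build GRCm38.p6). NRF1 and its relative NRF2 bind antioxidant response elements, whose core was searched as TGACNNNGC on both strands. It was found in 5 of the 43 windows (11.6%) and in 10.2% of all 32851 windows, a near-equal share. The 5 stretches are shown because they belong to genes of 4 different roles whose differences ran from -0.68 to 0.92. Capitals mark the core on the gene's strand, in which GCNNNGTCA is the core on the opposite strand, with up to 25 window bases on each side.
Psmb5, chr14:54618009-54618067, minus strand: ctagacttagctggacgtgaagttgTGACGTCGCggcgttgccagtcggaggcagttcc
Psmb6, chr11:70525323-70525356, plus strand: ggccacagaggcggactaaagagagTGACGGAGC
Psmc6, chr14:45329574-45329630, plus strand: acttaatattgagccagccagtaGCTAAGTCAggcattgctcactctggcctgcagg
Psmd12, chr11:107479278-107479314, plus strand: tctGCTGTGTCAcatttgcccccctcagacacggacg
Psmd9, chr5:123228134-123228189, plus strand: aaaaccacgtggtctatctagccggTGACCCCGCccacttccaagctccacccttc

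The matches began 47 bases before the start site in Psmb5, 9 in Psmb6, 227 in Psmc6, 247 in Psmd12 and 31 in Psmd9. Psmb5, Psmb6, Psmc6 and Psmd12 were lower in CR and Psmd9 was higher, so genes with this core lay on both sides of 0. The letters CCGGAAG, the binding sequence of ETS family factors, were found on either strand in 13 of the 43 windows (30.2%), against 6.91% of all windows. No matches of different motifs overlapped each other. Here 4 of these stretches are shown, those of the genes with the largest negative differences, with the match in capitals and CTTCCGG for the opposite strand.
Psmd2, chr16:20651601-20651651, plus strand: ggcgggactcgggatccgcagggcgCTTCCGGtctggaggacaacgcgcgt
Psmg1, chr16:95990998-95991054, minus strand: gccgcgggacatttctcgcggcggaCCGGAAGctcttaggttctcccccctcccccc
Psmd6, chr14:14120959-14121015, minus strand: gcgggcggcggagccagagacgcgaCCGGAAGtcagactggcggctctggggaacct
Psmd12, chr11:107479486-107479527, plus strand: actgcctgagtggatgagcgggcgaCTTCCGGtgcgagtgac

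The 12 proteasome genes with the ETS letters had a median difference of -0.37, and the 26 measured genes with a window but without the letters one of -0.45. The letters were thus frequent in proteasome windows, and the genes that held them had the smaller median difference. The CCAAT box, searched as CCAAT on both strands, was found in 14 of 43 windows (32.6%), against 33.8% of all windows. The medians ran the other way for the remaining motifs, with -0.60 in 13 measured genes with a CCAAT box and -0.39 in 25 without, and with -0.60 in 5 genes with the antioxidant core and -0.41 in 33 without. These medians were not tested.

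Other genes of the pathway did not share the direction uniformly. Nfe2l1, the NRF1 gene, had 261 in CR and 152 in AL, a difference of 0.78 on its single measured probe set. Its dimerisation partner gene Mafg had 136 in CR and 79.8 in AL (0.77, other probe set 0.65). Of 9 measured genes for factors that control proteasome transcription, 3 were below 0 and the median was 0.22. Syvn1, which encodes an ER-membrane ubiquitin ligase that turns NRF1 over, was the only member past 2-fold, with 199 in CR and 826 in AL (-2.06, other probe set -2.41). The regulator list thus lay mostly above 0 while the subunits lay mostly below. It mixes genes that act in opposite directions, such as the partner gene Mafg and Syvn1, so its median gives no direction of regulation. Its median was -0.16 after scaling on the cre control and -0.80 on all hybridisation controls.

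Proteins that attach to the proteasome or help to mature it lay near the array median, with 8 of 15 measured genes below 0 and a median of -0.00. These 15 include Sem1, a lid subunit gene outside the name rule, with 708 in CR and 738 in AL (-0.06, other probe set 0.10). The deubiquitinase gene Usp14 had 93.8 in CR and 133 in AL (-0.50), with probe sets from -0.82 to 0.28. Pomp, the gene of the core maturation factor, had 477 in CR and 648 in AL (-0.44). Zfand5, which encodes a ubiquitin-binding activator of the proteasome, had 294 in CR and 162 in AL (0.86), although a probe set of the same gene stood at -0.73.

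Genes of activating (E1) and conjugating (E2) enzymes for ubiquitin or ubiquitin-like proteins were lower in 15 of 22 cases, with a median of -0.16. Uba3, which encodes the catalytic subunit of the activating enzyme for the ubiquitin-like NEDD8, had 28.2 in CR and 84.8 in AL (-1.59, other probe set -1.77). The E2 gene Ube2d3 had 1040.4 in CR and 408 in AL (1.35), but its 7 measured probe sets reached down to -0.67. Genes of the p97 unfoldase, which extracts ubiquitin-tagged proteins for the proteasome, had a median of -0.13 over 10 genes. Vcp, the p97 gene itself, stood at 770 in CR and 1232 in AL (-0.68), and the cofactor gene Nsfl1c at 42.9 in CR and 84.2 in AL (-0.97). Ubxn4, which encodes a p97-binding protein of the ER membrane, stood at 315 in CR and 484 in AL (-0.62), with probe sets from -0.77 to 0.42.

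A pair of complexes built from subunits related to those of the lid were also lower at the median, by less than the 26S subunits. The COP9 signalosome, which removes NEDD8 from cullins, had 6 of 9 genes below 0 and a median of -0.36. Cops6 had 31.2 in CR and 58.6 in AL (-0.91), Cops2 had 15.9 in CR and 27.1 in AL (-0.77), and Cops5, the paralog of Psmd14, had 90.8 in CR and 145 in AL (-0.68). The translation initiation complex eIF3 had 7 of 11 genes below 0 and a median of -0.31. Eif3h had 43.8 in CR and 95.0 in AL (-1.12) and Eif3m 12.2 in CR and 27.8 in AL (-1.19), while Eif3l stood at -0.55 (other probe set 0.06). The cytosolic chaperonin CCT, a ring complex unrelated to the lid, had 6 of 8 genes below 0 and a median of -0.23. Its largest differences were those of Cct8 at -0.61, Cct3 at -0.58 and, above 0, Cct4 at 0.41, where the Cct4 probe sets ran from -0.21 to 0.42. Among MHC class I loading genes 9 of 11 were below 0, with a median of -0.48. Pdia3, the disulfide isomerase of the loading complex, was below the limit in CR with 5.46, against 29.9 in AL, at least 4.05-fold lower, although its other probe set gave 0.13. Calr, an ER chaperone of that list, had 803 in CR and 3571 in AL (-2.15), and B2m, the light chain of class I molecules, 1489 in CR and 2680 in AL (-0.85). A median below that of all measured genes was therefore found in several other complexes too.

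**Figure D5:**
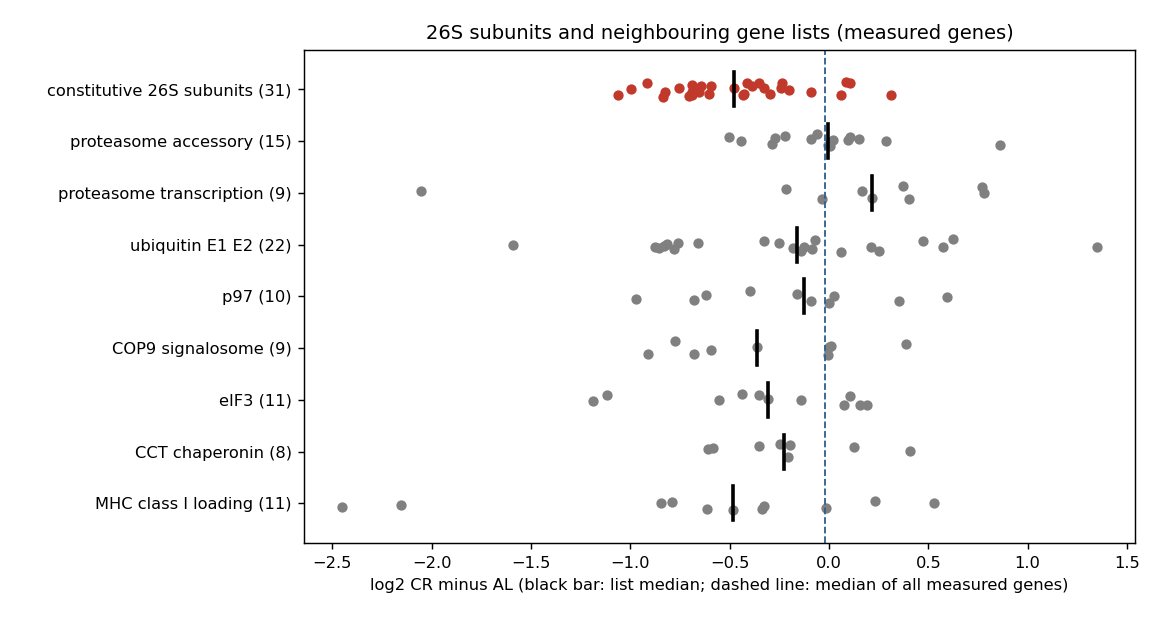
Log2 CR minus AL of the 31 measured constitutive 26S subunit genes (red) and of 8 neighbouring gene lists (grey), 1 point per measured gene, with black bars for medians, gene numbers in brackets and a dashed line at the median of all measured genes. The subunits centre at -0.48, the proteasome accessory genes at -0.00 and the genes that control proteasome transcription at 0.22. MHC class I loading genes centre at -0.48, COP9 at -0.36, eIF3 at -0.31, CCT at -0.23, ubiquitin E1 and E2 genes at -0.16 and p97 genes at -0.13. Sem1, a lid subunit gene, is drawn with the accessory genes.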

How the data were processed

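Total RNA of 3 mouse livers per diet was pooled and hybridised to 1 Affymetrix array per pool, per the labels' protocols. The deposited table held intensity values of 45101 probe sets, which, per the submitters' processing notes, the authors computed by RMA. RMA corrects background, normalizes arrays to each other and summarises probes, and therefore hides any change common to most transcripts. The values are linear (medians 7.42 in CR and 7.35 in AL, maximum 14045 in CR). The RMA version and genome build are not given in the sources used here, and no detection calls were used.

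Gene symbols came from the platform annotation. Of the probe sets 34945 had 1 symbol, 932 several and 9160 none, besides 64 controls. All 49 symbols of the rule were found by Entrez ID in the RefSeq gene table of GRCm38.p6. Intensities were taken to log2 and subtracted, CR minus AL. The probe set with the highest mean log2 value stood for a gene, and 7.38 in either pool made it measured. Thresholds of 1.5-fold and 2-fold are rules of size, not tests. The number of arrays limits the precision.

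The members and lists were chosen with earlier results of these data known. Named are all members at least 1.5-fold different, the catalytic subunits and their immunoproteasome counterparts, activators and inhibitor, and role extremes. From other lists, genes among the 3 largest differences or past 2-fold are named, besides Tap1, Tap2 and Sem1. Other members are given for completeness of their role. Alternatives were the mean of probe sets, plain probe sets only, no limit, a limit at the 75th percentile (21.0), array median centring, loess (span 0.4), scaling on hybridisation controls, and a 1.5-fold threshold. On simulated data of the CR minus AL comparison over 12659 genes, 100 of 100 genes planted at a log2 difference of 2 and 99 of 100 at -2 passed 2-fold. The planted genes were well above the limit and the noise was assumed, not measured. This checks the calculation steps alone and does not bear on the smaller differences reported here. Calculations ran in Python 3.11.15 with pandas 2.3.3, numpy 2.4.6 and, for loess, statsmodels 0.14.6; figures used matplotlib 3.10.9.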

Additional observations from a re-analysis of the deposited data

How the results depend on the processing

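With 1 pool per diet no replicate could be left out, and no paired analysis was possible because each group held a single pool. A value was taken as moved when it shifted by more than 0.288, the median SD between probe sets of a gene, or when a count shifted by more than 1.5 times. No median of a role or list, and no count, moved with no limit, array median centring or loess, and neither gene past 2-fold changed sign under the alternatives run. With array median centring Psmb2 joined them, making 3. Averaging the probe sets of a gene left 1 gene at least 2-fold lower, against 2, and gave medians of -0.31 for the immunoproteasome, -0.32 for the non-ATPase base genes and -0.24 for the core chaperones. Plain probe sets alone gave 8 lower and 1 higher, and medians of -0.17 for the immunoproteasome, -0.85 for the ATPases and 0.32 for the base chaperones. The stricter limit also gave 0.32 for the base chaperones; in each case Psmd10 was lost from the 3. A 1.5-fold threshold gave 20 lower and 1 higher. The sign of 4 of 46 genes changed on averaging, of 4 of 39 with plain probe sets and of 1 of 46 with loess.

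Scaling on all hybridisation controls shifted every value by the same amount. It gave 38 proteasome genes at least 2-fold lower, where 54.2% of all measured genes then were, and medians of -1.44 over all proteasome genes, -1.66 for α, -1.61 for β, -1.77 for immunoproteasome, -1.36 for ATPase, -1.77 for non-ATPase base, -1.56 for lid, -1.10 for activator, -1.29 for base chaperone and -1.61 for core chaperone genes. The list medians were -1.02 for accessory, -0.80 for transcription control, -1.18 for ubiquitin and -1.14 for p97 genes. They were -1.38 for COP9, -1.32 for eIF3, -1.24 for CCT and -1.50 for MHC class I genes. Scaling on cre alone gave 18 such genes, where 8.15% of all measured genes then were, and medians of -0.79 over all proteasome genes, -1.02 for α, -0.97 for β, -1.12 for immunoproteasome, -0.72 for ATPase, -1.13 for non-ATPase base, -0.92 for lid, -0.45 for activator, -0.65 for base chaperone and -0.97 for core chaperone genes. The lists then stood at -0.38 for accessory, -0.16 for transcription control, -0.53 for ubiquitin and -0.50 for p97 genes. They stood at -0.74 for COP9, -0.68 for eIF3, -0.60 for CCT and -0.85 for MHC class I genes. Dim probe sets near the limit of 7.38 carry the least information, among them those of Psma8, Psmd7 and Psmd10.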
